A study of Mus musculus with 12 samples.

Results

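Brain cortical endothelial cells from mice made to lose the histone deacetylase gene Hdac2 in endothelium (Hdac2 ECKO, 3 libraries) were compared with cells from wild-type mice (WT, 3 libraries). These are 6 of the 12 libraries of the series, and 12577 of the 21638 genes of its table averaged 10 or more counts across all 12 and were tested. The Hdac2 ECKO mice carried the alleles Hdac2lox/lox:Cdh5CreERT2, in which Cdh5CreERT2 is a Cre recombinase that tamoxifen switches on in cells using the promoter of VE-cadherin. They had 5 tamoxifen doses of 75 mg/kg, and adult brains were taken 2 months later. The alleles of the WT mice, and whether they were given tamoxifen, are not stated, so effects of Cre or tamoxifen and of Hdac2 loss cannot be told apart. Sorting kept cells with the endothelial protein CD31 and without CD41 (platelets) or CD45 (leukocytes). The remaining 6 libraries carry the labels Ezh2 ECKO (3) and beta-catenin GOF, for gain of function (3). They come from Ezh2lox/lox and Ctnnb1lox/lox mice with the same Cre, share 1 statistical model with the others, and are described only where named.

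Hdac2 is a class I histone deacetylase, an enzyme that takes acetyl groups off histone tails and acts mostly inside the NuRD, Sin3 and CoREST corepressor complexes together with its close relative Hdac1. Endothelial cells of the brain form the blood-brain barrier through tight junctions, low vesicle transport and selective transporters, a state that Wnt signalling maintains. The title of the series places the comparison in a study of how developmental programs of these cells can be switched back on in the adult brain.

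Of the gene lists described below, the interferon response held the largest number of genes that fell, 13 of 39. MHC class I had a larger share, 9 of 19. The promoter stretches of 5 interferon-response members and of the class I gene H2-T22 are shown first. Capitals mark the upstream match nearest the start to GAAA, any 2 bases and GAAA. Where the match lies on the other strand it reads TTTC, any 2 bases and TTTC. These letters are the core of the element that interferon-activated factors bind. Further matches within a stretch are left in lower case. Each stretch holds 60 bases 5′ to 3′ on the strand of the gene, upstream of its start, from RefSeq on GRCm38.p6, the same build as mm10, which the submitters' processing notes name.
Isg15, chr4:156200850-156200909, minus strand: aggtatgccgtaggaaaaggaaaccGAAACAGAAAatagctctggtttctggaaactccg
Socs1, chr16:10785579-10785638, minus strand: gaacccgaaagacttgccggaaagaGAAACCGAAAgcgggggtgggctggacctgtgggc
Oas1a, chr5:120907526-120907585, minus strand: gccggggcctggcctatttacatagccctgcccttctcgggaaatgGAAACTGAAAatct
Ifit3, chr19:34583382-34583441, plus strand: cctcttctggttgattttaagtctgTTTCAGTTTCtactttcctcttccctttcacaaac
Ifit3b, chr19:34607778-34607837, plus strand: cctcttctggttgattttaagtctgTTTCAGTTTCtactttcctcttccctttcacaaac
H2-T22, chr17:36042899-36042958, minus strand: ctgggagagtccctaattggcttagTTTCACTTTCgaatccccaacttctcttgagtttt
The capitalised match begins 66 bases before the start of Isg15, 77 before Socs1, 14 before Oas1a, 122 before Ifit3, 154 before Ifit3b and 191 before H2-T22. From 250 bases before to 50 after the start, Isg15 held 3 matches, Socs1, Oas1a, Ifit3 and Ifit3b 2 each, and H2-T22 1. The stretches of Ifit3 and Ifit3b are identical, and reads of such near-identical copies can be split between them. On either strand, with overlapping matches allowed and each promoter counted once, these letters occurred in 3.44% of all 32851 promoters (250 bases before to 50 after the start) and in 379 of the 9825 tested genes matched by symbol (3.86%). They occurred in 35 of 523 genes that were lower in Hdac2 ECKO (6.69%) and in 9 of 377 that were higher (2.39%). Among interferon-response genes with a promoter they were found in 6 of the 10 that fell and in 8 of the 22 that did not pass the test. Among interferon-inducible GTPases they were found in 4 of 5 that fell and in 6 of 6 others. For MHC class I genes the numbers were 2 of 9 and 2 of 8. These counts are small, and no difference between them was tested. A match is a description of the letters and does not show binding.

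Each WT library held 28854569 to 33124642 counts, and each Hdac2 ECKO library 24781070 to 26071384, which puts 3 counts, the floor used here, at 0.095 to 0.114 CPM, the count scaled to a fixed, TMM-adjusted library total. The counts of every pair of libraries within a group differed by more than sampling noise. Nothing in the labels ties the libraries to separate animals, so p-values measure only the spread between these libraries. The mouse endothelial marker Cdh5 stood at 102, 153 and 196 CPM across WT and 278, 181 and 282 CPM in the knockout, and its difference did not pass (log2 fold change 0.72, adjusted p 0.102). Genes above 0 numbered 14202 to 14490 in WT and 15370 to 17091 in Hdac2 ECKO. Haemoglobin and platelet genes summed to 36131, 38252 and 61389 CPM across WT and 21713, 407 and 996 CPM in the knockout.

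Hdac2 itself (ENSMUSG00000019777.16, chromosome 10, 36974544 to 37001889, plus strand) was examined first. It stood at 162, 121 and 104 CPM across WT and 82.2, 94.9 and 112 CPM in the knockout. The groups overlapped, and the difference did not pass the test (log2 fold change −0.42, SE 0.24, edgeR adjusted p 0.225). Counts were made per gene, so a deleted exon within an otherwise retained transcript could not be seen, and the level of Hdac2 neither bears out nor contradicts the label.

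Its relative Hdac1 (chromosome 4, 129516104 to 129542713) did fall. Hdac1 stood at 115, 89.2 and 56.6 CPM across WT and 30.8, 38.5 and 27.4 CPM in the knockout, so every knockout library lay below every WT library (2.70-fold lower, log2 fold change −1.43, SE 0.29, adjusted p 0.0323). Hdac8, a class I deacetylase that works outside these complexes, fell from 12.5, 7.79 and 6.19 CPM to 1.67, 3.07 and 3.60 CPM (log2 fold change −1.66, SE 0.42, adjusted p 0.0360). Hdac3, the enzyme of the NCoR complex, had a log2 fold change of −1.02 and missed the threshold (adjusted p 0.0628). With a correction for gene length, described below, Hdac1 and Hdac8 were still called (log2 fold changes −1.17 and −1.72).

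Of 40 tested genes of the deacetylases and their complexes, 2 rose and 7 fell, where 9.20% of all tested genes were called, 3.82% higher and 5.38% lower. The median of the 40 was −0.12, against 0.10 for all tested genes; scaled to total counts alone, these medians were 0.14 and 0.34. Besides Hdac1 and Hdac8, the members that fell were the histone-binding subunit Rbbp4 (log2 fold change −0.98), the NuRD subunit Mbd3 (−1.46), the Sin3 subunits Sap30l (−1.42) and Brms1 (−2.14), and Gps2 of the NCoR complex (−1.57). Brms1 overlaps Gm50388 on the same strand, so part of its counts is uncertain. The members that rose were the NuRD remodeller Chd3 (1.24) and its partner Gatad2b (1.11). After the length correction 3 of these calls were left (Hdac1, Hdac8 and Rbbp4). Rbbp7, the paralog of Rbbp4, stood at 327 ± 83.9 CPM across WT and 205 ± 16.5 CPM in the knockout (mean ± SD, n = 3) and did not pass (adjusted p 0.0757).

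Across all genes, edgeR's quasi-likelihood test called 1157 genes at a Benjamini-Hochberg adjusted p under 0.05, of which 480 were higher and 677 lower in the knockout. The median log2 fold change was 1.21 among the higher and −1.45 among the lower genes, and 1013 genes (8.05% of those tested) differed at least 2-fold. The values of the groups did not overlap in 1106 of the 1157, against 37.8% of all tested genes. Higher genes made up 41.5% of the calls with TMM scaling and 80.4% with scaling to total counts alone, which called 1462 genes higher and 357 lower, and the median over all tested genes then moved from 0.10 to 0.34. The calls sat close to the threshold, with adjusted p-values from 0.0320 to 0.0498.

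All of these calls depended on single libraries. Without WT replicate 1, WT replicate 2 or Hdac2 ECKO replicate 3 the same test called 0 genes, with 2795, 3194 and 2833 genes at an unadjusted p under 0.05. Without Hdac2 ECKO replicate 1 it called 3 genes, and without WT replicate 3 or Hdac2 ECKO replicate 2 it called 1872 and 2215 respectively. Of the 1157 genes, 994 were called in at least 2 of these 6 fits, 2 in 3 of them (Npw and Gsta4) and none in more. Every rise and fall named below therefore holds in the comparison of all 6 libraries and is lost when 1 of at least 3 libraries is left out.

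**Figure D1:**
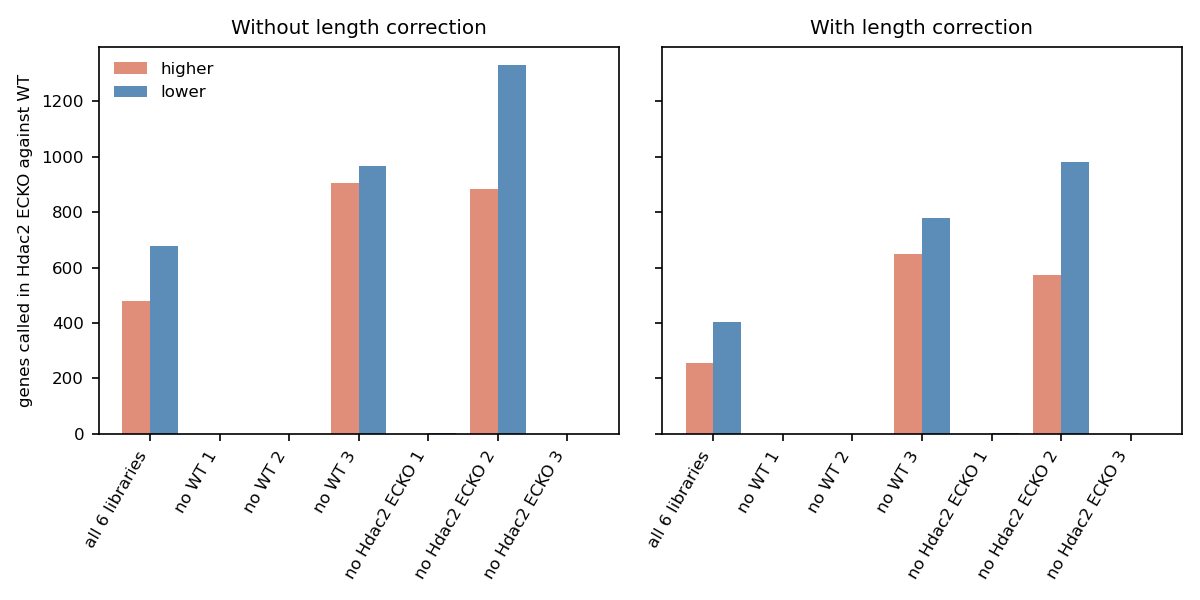
Number of genes called higher (orange) and lower (blue) in Hdac2 ECKO against WT, on the vertical axis, with all 6 libraries and with each library left out in turn, without (left) and with (right) the length correction. The bars are at or near 0 in 4 of the 6 fits on each side, and reach 2215 genes in total without Hdac2 ECKO replicate 2.

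Gene length moved with the comparison. The median log2 fold change was −0.37 in the shortest 10% of genes (up to 1667 bases), −0.63 in the next 10% and 0.76 in the longest 10% (from 10037 bases). Of the longest 10% 183 genes were called higher and 5 lower, and of those between 1668 and 2420 bases 3 higher and 174 lower. Each library carried its own slope. Log2 CPM per doubling of gene length changed by −0.15, −0.11 and −0.11 in WT replicates 1 to 3 and by 0.23, 0.07 and 0.19 in Hdac2 ECKO replicates 1 to 3, so the groups did not overlap. The libraries labelled Ezh2 ECKO had slopes of 0.13, −0.19 and 0.17, and those labelled beta-catenin GOF −0.10, −0.07 and −0.06. RNA integrity is not given in the sources used here, and the part of RNA quality in this trend was not tested.

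Removing a smooth length trend from every library left 658 genes called, or 5.23% of those tested, with 255 higher (2.03%) and 403 lower (3.20%). In all, 417 genes (3.32%) were called both with and without this correction, 122 higher and 295 lower. The Spearman correlation between log2 fold change and length over genes, 0.44 before, was −0.01 after. Most groups of genes below are given with their count after this correction. Each such count is to be read against the share of all tested genes called, 9.20% before the correction and 5.23% after it.

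**Figure D2:**
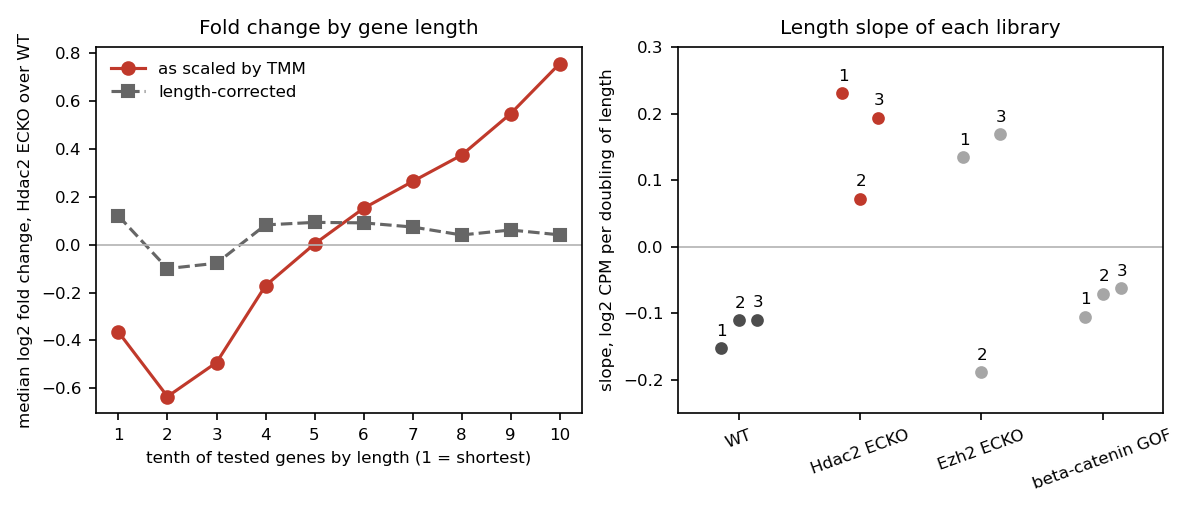
Left, median log2 fold change of Hdac2 ECKO over WT in 10 bins of the tested genes by length, before (red) and after (grey) the length correction. Right, slope of log2 CPM per doubling of gene length in each library, numbered by replicate, where all 3 Hdac2 ECKO libraries lie above 0 and all 3 WT libraries below.

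The 10 genes with the smallest p among those at least 2-fold lower were led by Cdkn1a (chromosome 17, 29090976 to 29100727, plus strand), which encodes p21, a cell cycle inhibitor that p53 switches on. Cdkn1a stood at 207, 168 and 111 CPM across WT and 32.5, 34.6 and 40.1 CPM in the knockout, 4.54-fold lower (log2 fold change −2.18, SE 0.32, adjusted p 0.0320). Every WT library lay far above every knockout library. Irf7, a transcription factor that amplifies interferon production, fell from 114, 184 and 47.0 CPM to 15.4, 19.8 and 14.8 CPM (6.89-fold lower). Socs1, which shuts off interferon receptor signalling, fell from 15.5, 16.8 and 6.90 CPM to 1.59, 1.44 and 0.97 CPM (9.78-fold lower). In these 2 genes WT replicate 3 was the lowest of the WT libraries, and still above all knockout libraries.

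Among the other genes of these 10, Trex1, the exonuclease that clears DNA from the cytosol, fell by 2.55 on the log2 scale, and its counts share a locus with Atrip on the same strand. Lgals9, encoding the lectin galectin-9, fell by 1.89, from 434 ± 161 to 117 ± 31.3 CPM. The stress-induced transcription factor gene Atf3 fell from 831, 380 and 246 CPM to 97.1, 59.0 and 117 CPM. Gadd45b, a growth arrest and stress gene, fell by 2.61 on the log2 scale, and Efna1, which encodes the Eph receptor ligand ephrin-A1, by 1.95. The membrane-binding annexin gene Anxa4 and the phosphodiesterase family gene Enpp5 fell by 1.53 and 1.58. All 10 were also called after the length correction, with log2 fold changes from −2.89 (Socs1) to −1.37 (Lgals9).

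Of the 10 genes with the smallest p among those at least 2-fold higher, 9 are described. Slc38a11, an amino acid transporter gene, rose from 0.66, 1.96 and 1.21 CPM to 40.4, 7.73 and 8.87 CPM, and replicate 1 stood far above the other knockout libraries. Mid1, a ubiquitin ligase gene on the X chromosome, rose from 1.62 ± 0.73 to 10.3 ± 3.31 CPM. The cholesterol exporter Abca1 (chromosome 4, 53030787 to 53159895, minus strand) rose from 22.2, 25.4 and 30.5 CPM to 132, 49.8 and 74.4 CPM.

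Eif2ak4, the kinase that senses amino acid shortage, rose by 1.57 on the log2 scale, from 16.1 ± 5.43 to 47.8 ± 13.6 CPM. Pabpc4, a poly(A)-binding protein gene, and Pdcd11, a ribosome assembly gene, rose by 1.62 and 1.59. Dynlt1a, a dynein light chain gene of a family of near-identical copies, rose by 1.53, and the zinc finger gene Zfp993, also of a multigene family, by 1.77. Fryl rose by 1.53 and was the gene described among these that was not called after the length correction (log2 fold change 0.74, adjusted p 0.0547). Pdcd11 and Dynlt1a overlap another gene on the opposite strand, and whether counting used strand is not given in the sources used here.

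**Figure D3:**
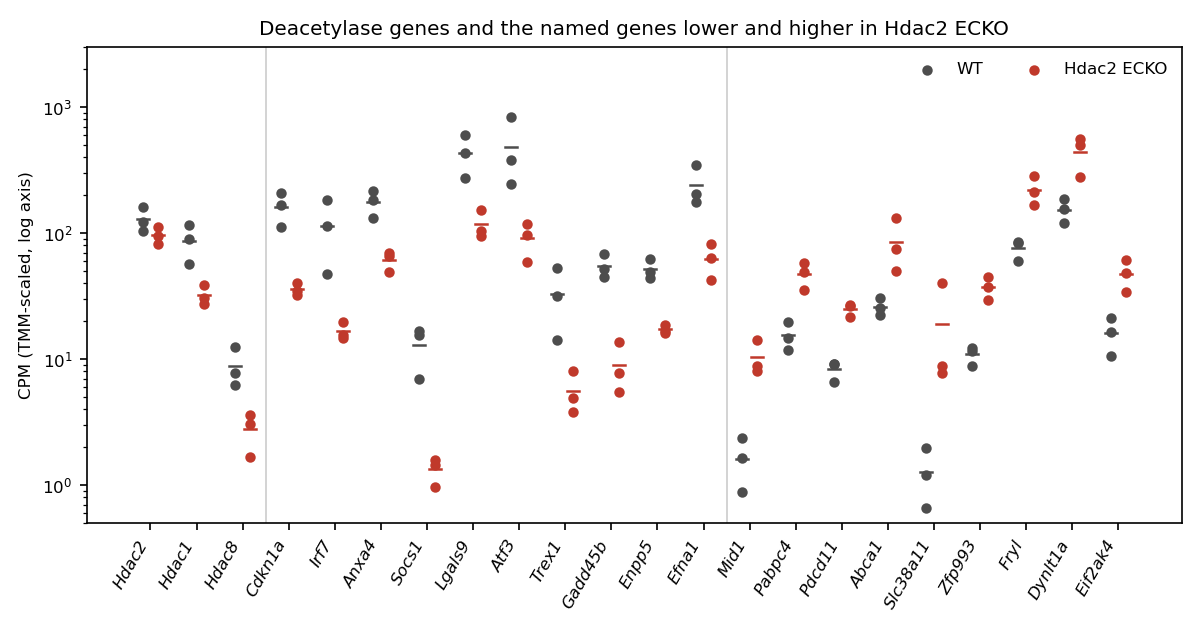
CPM on a log axis of Hdac2, Hdac1 and Hdac8 (left), the 10 named lower genes (middle) and 9 of the 10 higher genes (right) in each WT (grey) and Hdac2 ECKO (red) library, with the group mean as a bar. Hdac2 is the gene of the plot whose groups overlap.

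Npw and Gsta4 were the 2 genes called in 3 of the 6 fits that left out a library. Npw (chromosome 17, 24657330 to 24658457, minus strand) encodes the precursor of a neuropeptide. It was at 0, 0 and 0.36 CPM across WT and 8.86, 5.87 and 14.6 CPM in the knockout (log2 fold change 6.35, SE 0.91, adjusted p 0.0320). It was also called after the length correction (adjusted p 0.0208). Gsta4 (chromosome 9, 78182774 to 78209349, plus strand), a glutathione transferase that detoxifies products of lipid oxidation, fell from 651, 664 and 779 CPM to 275, 128 and 55.5 CPM (log2 fold change −2.19, SE 0.46, adjusted p 0.0323). The WT libraries were close together and the knockout libraries spread over a wide range below them.

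Of the 5 genes of highest level, only Bsg was called. Bsg encodes basigin, a glycoprotein of brain endothelium that partners lactate transporters, and no other gene had a higher mean CPM in WT. It stood at 40106, 32121 and 30238 CPM across WT and 5563, 17603 and 7314 CPM in the knockout (3.36-fold lower, log2 fold change −1.75, SE 0.48, adjusted p 0.0405). The length correction left a log2 fold change of −1.23 that did not pass (adjusted p 0.0545). The actin-binding Tmsb4x (log2 fold change −0.15), the endothelial Itm2a (−0.52) and Ly6c1 (−0.67) and the MHC light chain B2m (−0.73) did not pass (adjusted p 0.106 to 0.764). After the length correction the values of Tmsb4x and Itm2a were 0.48 and 0.10, which turned their sign.

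Interferon-response genes were lower in Hdac2 ECKO. Of 39 tested members, 13 fell and 0 rose, and the median log2 fold change was −0.78 against 0.10 for all genes. After the length correction 9 were called, all lower. Isg15, a ubiquitin-like protein and a standard readout of interferon, fell from 99.7, 195 and 98.9 CPM to 39.4, 47.9 and 32.3 CPM (3.29-fold lower, adjusted p 0.0323). The antiviral sensor gene Oas1a fell from 70.2, 154 and 71.6 CPM to 20.6, 40.6 and 25.7 CPM. Ifit3b fell from 125, 300 and 68.9 CPM to 29.2, 41.0 and 37.8 CPM, and its copy Ifit3 by 2.06 on the log2 scale. In each of these 4 genes WT replicate 2 was the highest library, and the other WT libraries also lay above all knockout libraries.

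Other members that fell include Irf1, an interferon-induced transcription factor, from 137, 228 and 50.9 CPM to 38.6, 35.9 and 40.7 CPM. Usp18, which removes Isg15 from proteins, fell by 1.35 on the log2 scale. Zbp1, a nucleic acid sensor, was called at −2.70, but it stood at 8.19, 124 and 22.6 CPM across WT and its groups overlapped. The membrane proteins Ifitm3 and Ifitm2, which block virus entry, are the most abundant members. They had log2 fold changes of −0.75 and −0.68 and did not pass (adjusted p 0.110 and 0.141), although all their WT values lay above their knockout values.

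Antigen presentation followed the same direction. Of 19 tested genes of MHC class I presentation 9 fell and 0 rose (median −1.15), and 1 of them, H2-T22, was called after the length correction. H2-D1, a classical class I heavy chain, fell from 596, 1114 and 540 CPM to 221, 321 and 337 CPM. H2-K1, its counterpart, stood at 286, 758 and 550 CPM across WT and 305, 292 and 336 CPM in the knockout, overlapped and did not pass (adjusted p 0.119). H2-T22 and H2-T23, non-classical class I genes, fell by 1.15 and 1.41 on the log2 scale. The immunoproteasome subunits Psmb8 and Psmb9 fell by 1.89 and 1.87, and the peptide-loading chaperone Pdia3 by 1.48. The H2 genes are near-identical relatives, and Psmb9 and Pdia3 overlap another gene on the opposite strand, so part of these counts is uncertain.

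Of 7 tested MHC class II genes, Cd74 and H2-Ab1 fell. Cd74, the invariant chain, stood at 11.9, 42.2 and 21.6 CPM across WT and 0.23, 0.72 and 0.49 CPM in the knockout (log2 fold change −5.70, SE 1.14). H2-Ab1 fell from 3.05, 29.7 and 6.12 CPM to 0.15, 0.52 and 0.14 CPM, and both were called after the length correction. Of 21 interferon-inducible GTPases 6 were called lower (median −2.12), 1 after the length correction, and WT replicate 2 stood far above all other libraries. The 21 genes summed to 2292, 31509 and 2594 CPM across WT and 2062, 2098 and 3371 CPM in the knockout. Igtp stood at 70.0, 1865 and 92.5 CPM across WT and 38.0, 55.7 and 76.5 CPM in the knockout, so its groups overlapped, as did those of Tgtp1 (442, 8515 and 518 CPM against 179, 326 and 535 CPM). Igtp and Tgtp1 each overlap a neighbour on the same strand. Without WT replicate 2, no gene of any list was called.

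Immediate early genes are switched on within minutes by stimuli, including tissue dissociation. Of 27 tested, 8 fell and 0 rose (median −0.35), and 6 were called after the length correction. Junb stood at 838, 363 and 134 CPM across WT and 112, 94.4 and 87.6 CPM in the knockout. Jund fell from 266, 121 and 35.0 CPM to 22.5, 32.8 and 24.5 CPM. In both genes WT replicate 1 was the highest library and WT replicate 3 stood close to the knockout libraries. The whole list summed to 14612, 7834 and 5686 CPM across WT and 7722, 3295 and 6617 CPM in the knockout, so the sums overlapped. Dusp1, a phosphatase that ends MAP kinase signalling, stood at 2775, 923 and 623 CPM across WT and 734, 300 and 652 CPM in the knockout and did not pass (adjusted p 0.0617). The part of cell isolation in these values was not tested.

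Genes of the integrated stress response, a list added after values were seen, also moved down. Of 18 tested, 6 fell and 1 rose (Eif2ak4), with 4 lower and 1 higher after the length correction. The list summed to 2019, 1187 and 931 CPM across WT and 425, 421 and 445 CPM in the knockout, without overlap. Ppp1r15a, which ends the translational block of this response, fell from 311, 120 and 33.8 CPM to 11.8, 28.2 and 15.1 CPM (8.42-fold lower). Gadd45g fell from 327, 331 and 276 CPM to 56.4, 115 and 49.6 CPM. Of 23 stress and chaperone genes, 4 fell and 1 rose, and 2 fell and 2 rose after the length correction. The small heat shock protein Hspb1 fell from 1096, 1063 and 948 CPM to 179, 346 and 258 CPM (3.97-fold lower), and all WT values lay far above the knockout values. The co-chaperone Dnajb1 fell by 1.83 and Xbp1, a factor of the unfolded protein response, by 1.03. Hsf2, a heat shock transcription factor, rose from 3.23 ± 0.58 to 11.3 ± 1.82 CPM. The abundant chaperone Hspa8 stood at 2209, 1660 and 880 CPM across WT and 506, 914 and 818 CPM in the knockout and did not pass (adjusted p 0.0684).

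Of 23 p53 targets and CDK inhibitors, 2 fell, Cdkn1a and Cdkn2d, and 0 rose, and both were called after the length correction. Before it, the share called, 8.70%, was near the 9.20% of all tested genes. Cdkn2d, an inhibitor of Cdk4, fell from 74.3, 70.8 and 52.5 CPM to 9.09, 32.4 and 19.7 CPM. Cdkn1c stood at 135 ± 20.2 CPM across WT and 66.6 ± 8.53 CPM in the knockout without overlap, and did not pass (adjusted p 0.0988). Of 33 cell cycle genes 1 rose (E2f3, from 2.13 ± 0.46 to 5.98 ± 0.85 CPM) and 1 fell (Cdk4, from 225 ± 42.8 to 91.0 ± 36.3 CPM), with a median of −0.04, and after the length correction 1 other member was called, lower. Before the correction 6.06% of this list was called, below the share of all tested genes.

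**Figure D4:**
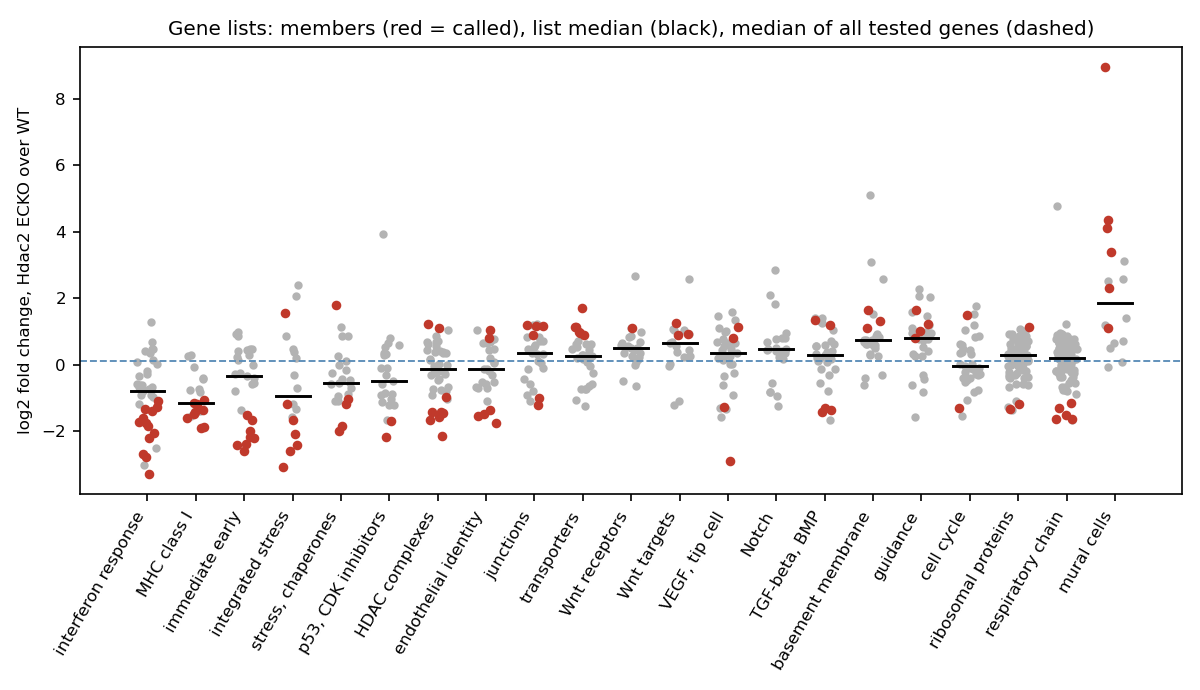
Log2 fold change of Hdac2 ECKO over WT for each tested member of 21 gene lists, with called members in red, the list median in black and the median of all tested genes as a dashed line. Called members of the interferon-response and MHC class I lists lie below 0, and those of the transporter, guidance, basement membrane and mural cell lists above 0.

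Endothelial identity genes divided. Of 29 tested, 2 rose and 4 fell, and 2 fell and 1 rose after the length correction. Erg, a transcription factor that defines endothelium, rose from 43.5, 59.8 and 79.3 CPM to 147, 90.8 and 142 CPM (adjusted p 0.0360). Robo4, an endothelial guidance receptor, rose from 50.2 ± 3.22 to 87.2 ± 6.39 CPM. Besides Bsg, the secreted factor gene Egfl7 fell from 1122, 795 and 579 CPM to 233, 417 and 310 CPM, the adhesion molecule gene Icam2 from 368, 534 and 330 CPM to 84.2, 224 and 128 CPM, and the lipid transfer gene Pltp by 1.55 on the log2 scale. The list summed to 85850, 88776 and 86369 CPM across WT and 40371, 54229 and 46557 CPM in the knockout. Without Bsg the sums were 45743, 56655 and 56130 CPM and 34808, 36627 and 39244 CPM, so the lower sum did not rest on Bsg alone. A sum weighs the most abundant genes, so it does not show a fall across the list. Of the 29 genes, 14 had a log2 fold change above 0 and 15 below. Their median was −0.12, and 0.08 after the length correction.

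Among 27 junction genes 4 rose and 2 fell, and 0 were called after the length correction. Tjp1, the scaffold ZO-1, rose from 140, 171 and 258 CPM to 553, 274 and 485 CPM. The adherens junction scaffold Afdn rose from 272 ± 64.1 to 613 ± 99.8 CPM, and Cgnl1, which anchors junctions to the cytoskeleton, by 0.88 on the log2 scale. F11r, the adhesion molecule JAM-A, fell by 0.99 and Marveld2, tricellulin, by 1.21. Cldn5, the main claudin of the blood-brain barrier, stood at 1172, 1892 and 1407 CPM across WT and 435, 1111 and 545 CPM in the knockout. These groups did not overlap, but the difference did not pass (log2 fold change −1.10, adjusted p 0.1004). Ctnnb1, beta-catenin, was at 654 ± 138 and 1157 ± 271 CPM and did not pass (adjusted p 0.0711).

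Of 32 barrier transporters 6 rose and 0 fell (median 0.27), and 4 rose after the length correction. Besides Abca1, the lactate transporter Slc16a1 rose from 485, 351 and 530 CPM to 1118, 745 and 766 CPM, and the phospholipid flippase gene Atp10a from 93.5, 108 and 84.3 CPM to 170, 182 and 178 CPM. Slco2b1, an organic anion transporter, rose by 0.99 on the log2 scale, the cationic amino acid transporter Slc7a1 by 1.13 and the zinc exporter Slc30a1 by 1.13. Of 17 genes of caveolae and transcytosis, the caveolar coat gene Cav1 and the antibody receptor gene Fcgrt fell (log2 fold changes −1.24 and −1.18) and the insulin receptor gene Insr rose (1.13). Cav1 was also called after the length correction (adjusted p 0.0442), and Insr was not (log2 fold change 0.38).

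Of 24 Wnt receptors and pathway components (median 0.50), Reck rose, from 47.2, 48.8 and 77.5 CPM to 147, 93.6 and 132 CPM, and 0 fell, and 0 were called after the length correction. The call before it is 4.17% of the list, below the 9.20% of all tested genes. Reck is the coreceptor through which Wnt7 acts on brain endothelium. Of 19 Wnt targets 3 rose and 0 fell (median 0.65), and 1 of them, Tnfrsf19, was called after the length correction. Tnfrsf19 rose from 97.3, 92.9 and 124 CPM to 193, 169 and 218 CPM, Znrf3, which removes Wnt receptors from the surface, from 11.6 ± 3.65 to 27.6 ± 3.09 CPM, and the Wnt inhibitor gene Apcdd1 by 0.93 on the log2 scale. Lef1, the transcription factor partner of beta-catenin, stood at 198, 359 and 363 CPM across WT and 769, 509 and 638 CPM in the knockout without overlap and missed the threshold (log2 fold change 1.06, adjusted p 0.0596). After the length correction its value was 0.57.

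Of 33 VEGF pathway and tip cell genes, Insr and Robo4 rose and Cd34 and Ramp3 fell (median 0.35). These 4 are 12.1% of the list, against 9.20% of all tested genes. Ramp3, a partner of the adrenomedullin receptor, fell from 16.8, 22.3 and 12.6 CPM to 2.23, 2.54 and 2.08 CPM (7.52-fold lower), and Cd34, a tip cell sialomucin, from 1392, 1005 and 510 CPM to 349, 434 and 425 CPM. Both were also called after the length correction. Flt1, VEGF receptor 1, was at 1293 ± 188 CPM across WT and 2050 ± 173 CPM in the knockout, did not pass (adjusted p 0.0840), and had a log2 fold change of −0.03 after the length correction, against 0.66 before. Of 22 Notch pathway genes edgeR called 0, with 8 at an unadjusted p under 0.05, and DESeq2 called 4. Over all 12577 tested genes these counts were 1157, 4161 and 2553. The last 2 shares of the Notch list were thus near those of all tested genes.

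Of 30 genes of TGF-beta and BMP signalling, 2 rose and 3 fell. Id1 and Id3, direct targets of BMP signalling, fell from 1972, 1653 and 1858 CPM to 557, 855 and 730 CPM and from 2868, 2571 and 2654 CPM to 835, 1436 and 1032 CPM. The pseudoreceptor Bambi fell by 1.44 on the log2 scale. Smad7, the inhibitory Smad, rose from 26.7, 37.6 and 39.6 CPM to 75.8, 66.4 and 97.8 CPM, and the receptor gene Tgfbr1 by 1.35 on the log2 scale. After the length correction Smad7 alone was called (adjusted p 0.0425). Of 25 basement membrane genes 3 rose and 0 fell. These were Hspg2, encoding perlecan (from 3.49 ± 0.69 to 11.0 ± 1.14 CPM), Lama4, the endothelial laminin chain (18.2 ± 1.52 to 39.0 ± 5.46 CPM), and Nid2, nidogen 2 (18.9 ± 6.90 to 46.7 ± 12.1 CPM). Of 31 guidance genes 4 rose and 0 fell, which were Robo4, the plexin genes Plxna2 (1.02) and Plxna4 (1.65) and the netrin receptor gene Neo1 (1.23). The median length of the tested members was 7464 bases for basement membrane and 7301 for guidance genes, against 4429 for all tested genes, and after the length correction 0 and 1 were called. Before the correction 12.0% and 12.9% of these lists were called, against 9.20% of all tested genes.

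Of 80 ribosomal protein genes, Rpl38 rose and Rpl29 and Rpl7l1 fell before the length correction (median 0.29), and 14 rose and 0 fell after it (median 0.62). Before it, 3.75% of these and 6.33% of the respiratory chain genes were called, against 9.20% of all tested genes. Rpl38 stood at 453, 582 and 1017 CPM across WT and 1946, 1067 and 1532 CPM in the knockout. Of 79 respiratory chain genes 5 fell before it (Sdhc, Sdhd, Atp5b, Ndufv1 and Uqcrc1) and 22 rose and 2 fell after it (medians 0.21 and 0.55), so the calls among these short genes rest on how length is treated. Sdhc, a subunit of succinate dehydrogenase, fell from 269, 285 and 255 CPM to 68.2, 122 and 94.9 CPM, and was called in both (log2 fold change −1.24 after the correction).

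Of 18 clock genes, a list added after values were seen, Per1 and Per3 rose and the repressor gene Nfil3 fell, and after the length correction Per1 and Per3 were called. Per3, a negative regulator of the circadian clock, stood at 8.64, 11.3 and 18.4 CPM across WT and 68.3, 58.1 and 62.0 CPM in the knockout (4.92-fold higher, adjusted p 0.0323), and Per1 at 6.42, 5.03 and 9.18 CPM and 27.9, 16.3 and 16.4 CPM. The hour of harvest is not given in the sources used here, and its part was not tested. Per3 overlaps Camta1 on the same strand. Of 24 leukocyte adhesion and cytokine genes, Nfkb1, an NF-kappaB subunit, rose (1.16) and Icam2 and Nfkbia, which holds NF-kappaB in the cytoplasm, fell, the last from 981 ± 129 to 428 ± 83.7 CPM. After the length correction Icam2 was the member called. Before it 12.5% of this list was called, against 9.20% of all tested genes.

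Markers of mural cells, the pericytes and smooth muscle cells that wrap vessels, were higher. Of 16 tested, 6 rose and 0 fell (median 1.85), and 4 rose after the length correction. Pdgfrb, the pericyte receptor, stood at 0.55, 0.06 and 0.43 CPM across WT and 10.5, 2.67 and 5.13 CPM in the knockout. Myh11, smooth muscle myosin, rose from 2.84, 3.96 and 3.35 CPM to 60.8, 11.9 and 34.0 CPM, and the pericyte gene Higd1b from 3.09, 3.89 and 7.26 CPM to 33.7, 15.7 and 21.3 CPM. Replicate 1 was the highest and replicate 2 the lowest knockout library in all 3 genes. Myocd, the smooth muscle coactivator, had 0 counts in every WT library and was at 3.29, 0.91 and 1.94 CPM in the knockout, at least 20.1-fold higher against a floor of 3 counts per library. Rgs5 and Cspg4 rose as well (1.10 and 4.35), and Acta2 did not pass (adjusted p 0.111). The list summed to 103, 134 and 185 CPM across WT and 435, 200 and 326 CPM in the knockout. In these bulk samples a different share of mural cells and a different amount of RNA per cell cannot be told apart.

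The leukocyte marker Cd53 fell from 2.08, 2.41 and 2.85 CPM to 0 counts in all 3 knockout libraries, at least 23.3-fold lower. Cd53 was also at 0 CPM in every library of the other mutants. The red cell gene Alas2 fell from 14.2, 21.2 and 7.33 CPM to 1.36, 0.65 and 0.49 CPM. Alas2 stood at 0.43 to 1.30 CPM in the libraries labelled Ezh2 ECKO and at 0.37 to 13.1 CPM in beta-catenin GOF. Haemoglobin genes did not pass, with Hba-a1 at 10696, 11291 and 16868 CPM across WT and 7012, 128 and 308 CPM in the knockout. The astrocyte markers Aqp4 and Gfap stood at or under 1.14 CPM in all 6 libraries, but the astrocyte list as a whole was higher. Its 6 tested members had a median log2 fold change of 1.12 (0.59 after the length correction), with 5 above 0 and 1 below. The list summed to 38.7, 29.7 and 36.7 CPM across WT and 110.5, 68.4 and 74.0 CPM in the knockout. Ttr, made in choroid plexus, stood between 0.64 and 1.11 CPM across WT and 0.91, 110 and 27.7 CPM in the knockout. In the fibroblast, neuron, oligodendrocyte, microglia and choroid plexus lists edgeR called 0 genes. Of their 6, 3, 5, 8 and 2 tested genes, 0, 1, 1, 1 and 1 were at an unadjusted p under 0.05. DESeq2 called the same numbers. Over all 12577 tested genes 4161 were at an unadjusted p under 0.05, and DESeq2 called 2553. The part of these cells in the endothelial results was not tested.

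Genes of the olfactory and vomeronasal receptors, which brain endothelium is not known for, were used as a measure of stray low counts. Of 1466 such genes, 162, 190 and 297 had a count in WT and 958, 475 and 457 in Hdac2 ECKO, without overlap. Their counts summed to 91.8, 135 and 117 CPM across WT and 319, 131 and 153 CPM in the knockout, so the sums overlapped, with WT replicate 2 above Hdac2 ECKO replicate 2. Of the 24 that were tested Olfr56 was called, at 8.39, 53.6 and 7.90 CPM in WT against 5.49, 4.21 and 5.51 CPM. Its gene model spans Tgtp1, Tgtp2 and Ifi47. In the whole comparison 15 called genes were at or under 3 counts in every WT library, Myocd among them. The part of stray counts in such rises was not tested.

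**Figure D5:**
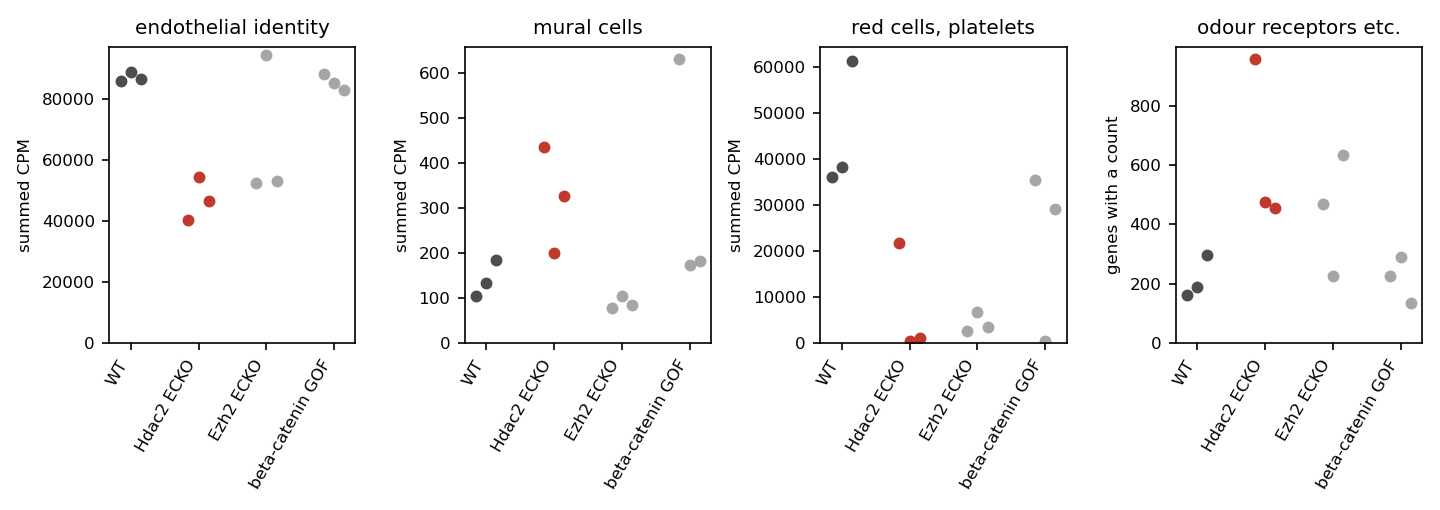
Summed CPM of endothelial identity, mural cell and red cell or platelet genes, and the number of olfactory and vomeronasal receptor genes with a count, in each library of the 4 groups. Hdac2 ECKO libraries (red) lie below WT (dark grey) for endothelial and red cell genes and above it for mural and receptor genes, and the other mutants are light grey.

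Calls were spread over the genome. Between 7.20% and 12.4% of the tested genes of a chromosome were called, and of 31 tested genes within 5000000 bases of Hdac2, 1 was (3.23%).

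The other mutants share the WT libraries with this comparison, so their values are set side by side and not correlated. Sharing WT also pushes their changes to the same direction. Of the 1157 called genes, 1144 had the same sign in the libraries labelled Ezh2 ECKO. The interferon-response median was −0.71 in these libraries and −0.61 in beta-catenin GOF, beside −0.78 in Hdac2 ECKO. For MHC class I it was −0.82 and −0.75, beside −1.15. These lower medians were not particular to Hdac2 ECKO. The mural cell median was 0.09 and 1.36, beside 1.85. The libraries labelled Ezh2 ECKO did not have lower Ezh2 than WT (log2 fold change 0.40, adjusted p 0.615). Against WT, Irf7 had a log2 fold change of −2.52 in them and −1.88 in beta-catenin GOF, beside −2.78 in Hdac2 ECKO. Hdac1 had −1.31 and −0.88, beside −1.43. Npw was at 7.90 to 10.9 CPM in the libraries labelled Ezh2 ECKO and at 0.11 to 0.20 CPM in beta-catenin GOF. Cdkn1a stood at 80.8 to 177 and 122 to 131 CPM, above the 32.5 to 40.1 CPM of Hdac2 ECKO. Gsta4 stood at 450 to 1080 and 938 to 1469 CPM, also above all Hdac2 ECKO libraries. Per3 was at 7.83 to 44.5 and 16.3 to 17.9 CPM, below the Hdac2 ECKO range.

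Tested directly, Hdac2 ECKO differed from the libraries labelled Ezh2 ECKO in 3 genes (0.0239% of those tested) and from beta-catenin GOF in 9 (0.0716%). None of the 3 genes, Ifi202b, Sgce and Aldh1a1, was called in Hdac2 ECKO against WT. Of the 9, Cdkn1a (log2 fold change −1.82, adjusted p 0.0483), Gsta4 (−2.94, adjusted p 0.0328), Npw (6.09, adjusted p 0.0328), Gimap4 (−1.68) and Sft2d1 (−1.69) were also called against WT, where Gimap4 and Sft2d1 had log2 fold changes of −1.02 and −1.34. The other 4, Cd59b, Cp, Hjurp and Serpine2, were not. Against the libraries labelled Ezh2 ECKO, Cdkn1a had a log2 fold change of −1.67 and Gsta4 of −2.24. Neither passed the edgeR test (adjusted p 0.113 and 0.174), so a difference of these genes from that mutant is not shown. Per3 is not among the genes called against either mutant.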

How the data were processed

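RNA of FACS-sorted cells was made into SMART-Seq v4 PLUS libraries and sequenced as pairs. The deposited table calls its values normalized, but they are whole-number counts with unequal totals and an excess of even values, as counting both mates gives, so they were treated as raw counts. FastQC, cutadapt, STAR, featureCounts and DESeq2, and build mm10, are named in the submitters' processing notes, without versions. Of the 137 genes described with a test, 26 overlap another gene of the table, and whether counting used strand is not given in the sources used here. Table positions matched GENCODE M21 for 99.09% of rows, and coordinates count from 1.

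edgeR 4.0.16 (R 4.3.3) was run with TMM scaling, a term per group over all 12 libraries, a mean count of at least 10, quasi-likelihood F tests and Benjamini-Hochberg adjustment (threshold 0.05). CPM use TMM-scaled totals, and the SE of a fold change comes from its F statistic. The length correction removed from each library a natural spline (5 degrees of freedom) on log2 gene length. Groups and replicate numbers come from the sample titles. Alternatives were median-ratio scaling, total counts, no filter, a mean of at least 50, DESeq2 1.42.0, limma 3.58.1 on log2(CPM + 1), sample quality weights, only the 2 groups, the replicate block, and leaving out libraries, in pairs only as an addition made after seeing the data. The tests were run on simulated data first. Intervals and floors cover counting error only, as reads carry no molecular identifiers.

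Members and gene lists were chosen with earlier results of these data known. Named genes are Hdac2, Hdac1, Hdac3, Hdac8 and Cdh5, the 10 of smallest p per direction (called, not overlapping, at least 2-fold, mean of at least 5 CPM), the 8 per direction called in both fits and in most fits without a library, per list up to 4 called by p and 2 others by level, and the 5 of highest level; 1 gene this rule selects is not reported here. Those named outside it, after their values were seen, are Rbbp4, Sap30l, Gatad2b, Mbd3, Brms1, Ifit3, Irf1, Oas1a, Usp18, Zbp1, Psmb8, Psmb9, Gadd45g, Pltp, Tjp1, Slc16a1, Slc30a1, Bambi, Cspg4, Rgs5, Uqcrc1, Aqp4, Gfap, Ezh2, Gimap4, Sft2d1 and the genes called only between mutants.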

Additional observations from a re-analysis of the deposited data

Results flagged for a closer look

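A signal appeared outside the main measurement in olfactory and vomeronasal receptor genes, nearly all of which were too low to be tested. Of 1466 such genes, 958, 475 and 457 had at least 1 count in Hdac2 ECKO replicates 1 to 3, above the 162 to 297 of the WT libraries. In the libraries labelled Ezh2 ECKO 227 to 636 had a count, and in beta-catenin GOF 134 to 289.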

How the results depend on the processing

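The 1157 calls (480 higher, 677 lower) stayed within 1.5 times under median-ratio scaling, a mean count of at least 50, limma and only the 2 groups. Total counts alone gave 1819 (1462 higher, 357 lower), no filter 2279 (905 and 1374), DESeq2 2553 (1039 and 1514), sample quality weights 5374 (2729 and 2645) and the length correction 658 (255 and 403). Leaving out 1 library gave 0 to 2215 calls (0 to 906 higher, 0 to 1330 lower), and with the length correction 0 to 1555 (0 to 648 higher, 0 to 980 lower). Without WT replicate 1 and Hdac2 ECKO replicate 1 together, chosen after seeing the data, 1 gene was called, 0 higher and 1 lower. The cause of these shifts was not tested.

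Same-numbered libraries deviated together with r of −0.195, 0.111 and 0.0977, so the numbers were not taken as pairs. The replicate block gave 1832 calls (717 higher, 1115 lower), and 1175 with the length correction (425 higher, 750 lower).

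Against the libraries labelled Ezh2 ECKO (3 calls), no filter gave 199, DESeq2 98, limma and quality weights 11 each, the block with length correction 1, and leaving out libraries 0 to 4. Against beta-catenin GOF (9 calls), total counts gave 4, no filter 978, DESeq2 621, quality weights 3339, the length correction 1, the block with length correction 1, and the pair left out together 4. Leaving out 1 library gave 0 to 537, and 0 to 165 with the length correction, which gave 1 to 3 in most such fits.

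Of the 118 named genes that were called, 61 were called after the length correction, 112 by DESeq2 and 100 with total counts. Signs turned as follows. Tmsb4x was 0.108 with total counts, 0.0846 with quality weights, 0.481 with the length correction, 0.471 with the block as well and −0.337 without both replicates 1. Leaving out 1 library, it was up to 0.158 (without WT replicate 3), and with the length correction 0.345, 0.368, 0.369, 0.401, 0.599 and 0.737. Itm2a was 0.101 with the length correction, 0.0923 with the block as well, and 0.0223, 0.227 and 0.315 where a library was left out as well. Flt1 was −0.0259 and −0.0472 in the same settings, and −0.0577, −0.0577, −0.0805 and −0.233 where a library was left out as well. With the length correction and without WT replicate 2, B2m was 0.166, Ly6c1 0.107 and Igtp 0.05002, and without WT replicate 3 Plxna2 was −0.0282. At these depths 3 counts are 0.095 to 0.114 CPM, which limits statements on genes near 0.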
